A study of Mus musculus with 6 samples.

Results

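Acute phase and mucosal defence proteins are secreted proteins that epithelia and liver make in larger amounts during infection, inflammation and injury. The 8 genes described here are *Hp*, *Lcn2*, *Saa1*, *Saa3*, *Cp*, *Ltf*, *Pigr* and *Slpi*, which are 8 of the 17428 genes in the deposited table. They were listed by name for what their products do, and the list was chosen by its best known case: *Hp* is among the genes with the largest differences between the cell states. The values of *Hp* are therefore given as a description, with no test. The other members were listed for their function, with results of these data known.

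The libraries were made from EpH4, a mouse mammary epithelial cell line that is described as near normal. E cells were grown in normal medium without TGFβ1, M cells received TGFβ1 for 7 days, and RE cells were M cells returned to normal medium for a further 4 days. Each state had 2 libraries (n = 2), and all came from the same line with no genetic change. The M state models an epithelial-mesenchymal transition (EMT) driven by 1 added factor in culture, and no immune cells or liver cells were part of it.

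The acute phase response is switched on mainly by interleukin 6 and its relatives, which signal through gp130 and STAT3, and by interleukin 1, interleukin 17 and tumour necrosis factor, which signal through NF-κB. C/EBP transcription factors bind the promoters of many acute phase genes. The products defend mostly by withholding nutrients or by neutralizing toxic molecules: haptoglobin (*Hp*) captures free haemoglobin, ceruloplasmin (*Cp*) carries copper and oxidizes iron, lipocalin 2 (*Lcn2*) binds the iron carriers of bacteria, and lactoferrin (*Ltf*) binds iron itself. The serum amyloid A proteins (*Saa1* and *Saa3*) are lipid-binding proteins of inflammation, the polymeric immunoglobulin receptor (*Pigr*) carries antibodies of mucosal surfaces across epithelium, and the secretory leukocyte protease inhibitor (*Slpi*) blocks neutrophil elastase. In the mammary gland, several of them are secreted into milk or rise after weaning.

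Sequences before the starts of the members are shown first, with the letters that C/EBP factors are known to bind at acute phase genes. RefSeq windows of 250 bases before an annotated start (build GRCm38.p6) were matched by symbol for 7 of the 8 members, with 2 starts for *Cp* and so 8 windows. *Hp* had no window and was not searched. The letters TTGCNNAA, a C/EBP recognition sequence, were searched on both strands. They were found in the windows of 6 of these 7 genes and in 6 of the 8 windows, against 9.57% of all 32841 windows of this length in the same table. In *Lcn2* and at the second start of *Cp*, 197 and 195 of the 250 bases were annotated as exon of some transcript (GENCODE M21) and the match itself lay in exon, whereas the other 4 matches lay outside exons. In the stretches below, written 5′ to 3′ on the strand of the gene, capitals mark these letters or, on the other strand, their reverse complement.
*Lcn2* (chr2:32387937-32387966, minus strand): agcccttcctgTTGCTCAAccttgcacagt
*Saa1* (chr7:46743144-46743173, minus strand): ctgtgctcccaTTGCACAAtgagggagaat
*Saa3* (chr7:46715757-46715786, minus strand): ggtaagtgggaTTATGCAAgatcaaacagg
*Cp*, second start (chr3:19957168-19957197, plus strand): attagttactcTTTTGCAAcattaaattgt
*Ltf* (chr9:111019206-111019235, plus strand): aggcaggcctaTTGGGCAAtagggtggggc
*Slpi* (chr2:164356730-164356757, minus strand): gaatttgtaTTGAGCAAtaggttagagt

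The matches began between 70 bases (*Cp*, second start) and 241 bases (*Slpi*) before the start. The window of *Pigr* held none of these letters. For *Slpi* and the first start of *Cp*, 2 genes called in E vs. M and M vs. RE whose windows overlap no annotated exon, the 250 bases are given whole, with capitals for the C/EBP letters in *Slpi* and for an AP-1 sequence (TGANTCA) in *Cp*.
*Slpi* (chr2:164356508-164356757, minus strand): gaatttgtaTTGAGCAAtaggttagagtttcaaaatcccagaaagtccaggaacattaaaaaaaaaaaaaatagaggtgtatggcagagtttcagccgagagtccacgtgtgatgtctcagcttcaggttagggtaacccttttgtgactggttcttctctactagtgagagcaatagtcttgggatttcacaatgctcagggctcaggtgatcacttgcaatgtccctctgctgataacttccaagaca
*Cp*, first start (chr3:19956804-19957053, plus strand): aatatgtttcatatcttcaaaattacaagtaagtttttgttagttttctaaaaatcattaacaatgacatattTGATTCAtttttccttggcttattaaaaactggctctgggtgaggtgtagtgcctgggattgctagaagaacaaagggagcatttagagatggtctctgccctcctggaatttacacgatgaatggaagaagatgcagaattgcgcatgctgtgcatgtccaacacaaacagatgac

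The AP-1 letters, also searched on both strands, were found in 6.75% of all windows and in no other window of the members. The STAT letters TTCNNNGAA (7.02% of all windows) and the κB consensus (5.0%) were not found in the members' windows, which says only that these letters are not in these 250 bases. A match is a run of letters and not a measured binding site.

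**Figure D1:**
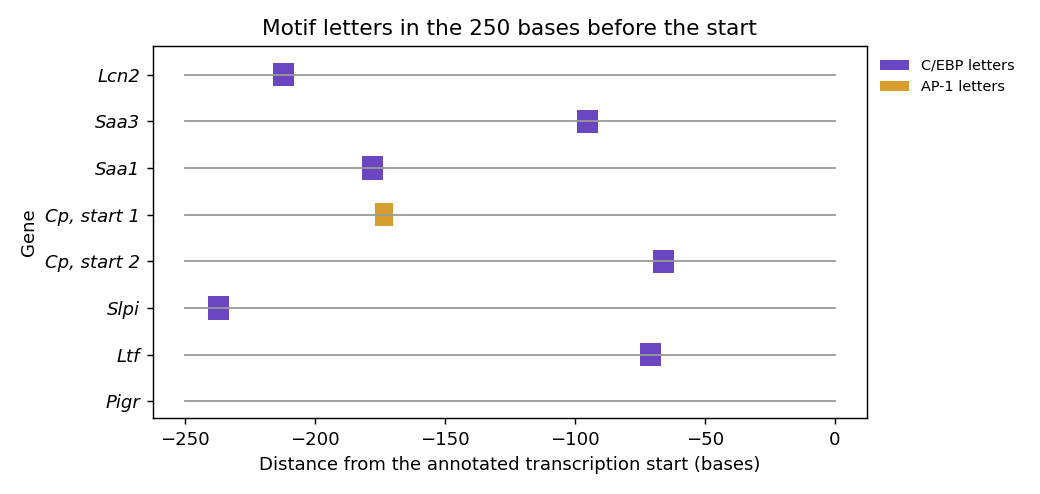
Positions of motif letters in the RefSeq windows of the members other than *Hp*, which had no window. The x axis is the distance in bases from the annotated transcription start and each grey line is 1 window of 250 bases. Purple boxes are TTGCNNAA on either strand (C/EBP) and the yellow box is TGANTCA (AP-1). The purple boxes lie at different distances, from 241 to 70 bases before the start, and *Pigr* has no box.

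Coverage, the sum of sequenced bases over a gene, was scaled between libraries and is given in ppm of the library total. Reads' worth takes a read as 50 bases, a length that the methods of the study do not give. Of the nonzero values up to 400 bases, 44.8% to 48.4% in each library were multiples of 50. Library totals corresponded to 35782513 such reads at the least and 4.79e+07 at the most. A floor was set at 3 reads' worth, which is 0.0632 to 0.0787 ppm in the different libraries and allows for counting error alone. Across all genes tested, the log2 values of the 2 E libraries differed more (SD over genes 0.558) than those of the M (0.318) or RE libraries (0.309). As the cell type check, the summed coverage of 7 epithelial markers was 1353 to 1694 ppm in the E libraries, 1809 to 1945 in the M libraries and 982 to 1044 in the RE libraries. *Cdh1*, *Krt8*, *Krt18* and *Krt14* were above 100 ppm in every library, and *Krt5* and *Krt19* below 0.5 ppm in each. *Krt18* was at 879 and 616 ppm in E, 586 and 553 in M and 269 and 311 in RE. *Krt14* was highest in M (664 and 760 ppm). *Elf5* was at 0.0462 and 0.0818 ppm in E, 2.89 and 2.90 in M and 0.175 and 0.365 in RE. Leukocytes are another source of *Lcn2*, *Ltf* and *Slpi*. The sum of 9 leukocyte markers was 7.09 and 10.99 ppm in the E libraries, 34.7 and 38.8 in the M libraries and 8.10 and 8.04 in the RE libraries. *Cd68* was at 5.14 to 9.25 ppm in all libraries. *Csf1r* was at 1.55 and 1.28 ppm in E, 25.7 and 30.1 in M and 2.07 and 1.44 in RE. *Fcer1g* was also highest in M (1.37 and 1.29 ppm, against 0.132 and 0.140 in E and 0.410 and 0.329 in RE). The defining markers *Ptprc* and *Cd3e* were at or under the floor in all 6 libraries. The part of leukocyte markers in the results was not tested. The sum of 3 hepatocyte markers was at most 1.81 ppm in any library. The sum of 7 fibroblast markers was 136 and 167 ppm in the E libraries, 1134 and 997 in the M libraries and 1246 and 1065 in the RE libraries, and its part in the results was not tested. In bulk libraries, fewer cells that express a gene and less RNA per cell cannot be told apart.

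Of the 8 members, 6 reached 500 bases, or 10 reads' worth, in 2 or more libraries and entered the limma fit of all 13893 such genes. *Saa1* and *Ltf* did not. A gene was called where its log2 fold change (log2FC) exceeded 1 in size and its adjusted p (Benjamini-Hochberg) was below 0.01. Some counts are given at an unadjusted p below 0.05 in limma, with no fold threshold. The share of all genes at that level is not given. Positive values mean higher in the second group named. The values are on the log2(ppm + 0.1) scale, which understates those of low genes. In this fit each gene had a variance shared by all states, and so the same SE in every comparison. Since the E libraries differed more, adjusted p values may be too small in comparisons with E and too large in M vs. RE. With only the 2 groups compared in the fit, 462 genes were called in place of 1263 in E vs. RE. The counts were 1715 in place of 2329 in E vs. M and 2305 in place of 1766 in M vs. RE.

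*Hp* was high in the E cells, nearly absent in the M cells and high again in the RE cells. Its coverage was 162 and 54.5 ppm in the 2 E libraries, 0.0668 and 0.202 in the M libraries, and 152 and 107 in the RE libraries. The M libraries held only 2.80 and 8.26 reads' worth, against at least 2079 in each of the other 4. The E and RE libraries overlapped, the first E library being the highest of all and the second the lowest of these 4. The mean was 808 times higher in the E than in the M cells (log2FC −8.71) and 963 times higher in RE than in M (9.15). These folds are rough, since the first M library was under the floor and the E libraries were unequal: the first E library was 1210 times and the second 406 times above the M mean, and log2FC in E vs. M ran from −9.52 to −7.92 without the second or the first E library. Between E and RE the log2 difference was 0.43, and it changed sign to −0.37 without the second E library. A pseudocount of 1 brought the E vs. M value to −6.40.

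Among the 5 members tested besides *Hp*, *Lcn2*, *Cp* and *Slpi* were called lower in M than in E and 0 were called higher. The same 3 genes were called higher in RE than in M. Over all genes tested, 16.8% were called in E vs. M (8.35% lower and 8.41% higher). In M vs. RE, 12.7% of all genes were called (7.92% higher and 4.79% lower). Since *Hp* drew attention to the list and differs in both comparisons, nothing is read from the members' count in either. The comparisons share libraries and are not independent of each other. The median log2FC of the 5 members was −1.76 in E vs. M and 2.36 in M vs. RE, against −0.0025 and −0.024 over all genes tested. These 5 include *Pigr*, which passed the filter through the RE libraries alone, so the medians are descriptions.

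*Lcn2* coverage was 31.3 and 21.3 ppm in the E libraries, 0.599 and 0.578 in the M libraries, and 13.9 and 15.2 in the RE libraries. The 3 states did not overlap, with RE between E and M. *Lcn2* fell by 5.24 on the log2 scale from E to M (SE 0.22, adjusted p = 1.38e-05 in limma) and rose by 4.41 from M to RE (SE 0.22, adjusted p = 2.45e-05). The RE mean was 0.552 of the E mean. This difference was not called (log2FC −0.83, adjusted p = 0.0292 in limma, 95% interval −1.35 to −0.31), but it was called without the second E library (−1.12, adjusted p = 0.00037 in limma). Without the first E library it was −0.56 (adjusted p = 0.0406 in limma), and without the first or the second RE library the adjusted p was 0.198 and 0.118. *Slc22a17*, a receptor for lipocalin 2, was at or under the floor in all libraries.

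*Cp* was the member with the most coverage in every library. It was at 1766 and 1290 ppm in the E libraries, 522 and 392 in the M libraries, and 3541 and 3177 in the RE libraries. The states did not overlap, and RE was highest. *Cp* fell by 1.74 on the log2 scale from E to M (SE 0.21, adjusted p = 0.000882 in limma) and rose by 2.89 from M to RE (SE 0.21, adjusted p = 0.000106). The call in E vs. M was lost without the second M library (log2FC −1.53, adjusted p = 0.012 in limma).

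*Cp* was also the 1 of 5 tested members called in E vs. RE, where it was higher in the RE cells and where 9.09% of all genes were called (5.93% higher and 3.16% lower). Its mean was 2.20 times that in the E cells (log2FC 1.15, SE 0.21, adjusted p = 0.00819 in limma). The call is close to both thresholds. It was lost with library totals in place of the scaling used (adjusted p = 0.0109 in limma), with no filter (0.0188), when E and RE were fitted alone (0.0256), without either M library (0.0182 and 0.0179) and without the first or the second RE library (0.0945 and 0.0532). Without the second E library the log2FC was 0.91, under the fold threshold.

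*Slpi* coverage was 101 and 58.3 ppm in the E libraries, 19.7 and 25.9 in the M libraries, and 113 and 119 in the RE libraries. Both RE libraries lay above the E libraries, and the M libraries lay below all others. *Slpi* fell by 1.76 on the log2 scale from E to M (SE 0.26, adjusted p = 0.00187 in limma) and rose by 2.36 from M to RE (SE 0.26, adjusted p = 0.000641). Against the E cells, the RE cells differed by 0.60 (adjusted p = 0.119 in limma, 95% interval −0.01 to 1.20), which was not called. Its E vs. M call was lost without the first or the second M library (adjusted p = 0.0227 and 0.0108 in limma), and its M vs. RE call without the first or the second RE library (0.011 and 0.0108).

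*Saa3* was low and uneven. It was at 1.62 and 0.335 ppm in the E libraries (69.9 and 12.8 reads' worth), 0.0239 and 0.0293 in the M libraries (1.0 and 1.2 reads' worth) and 0.279 and 0.121 in the RE libraries (13.3 and 5.32 reads' worth). Both M libraries were under the floor, against which the E mean was at least 13.5-fold higher and the RE mean at least 2.76-fold higher. Taken singly, the first E library was at least 22.3-fold and the second at least 4.62-fold above it. Neither difference from the M cells was called (E vs. M adjusted p = 0.0126 and M vs. RE adjusted p = 0.201 in limma). The E vs. M difference was called without the second E library (log2FC −3.77, adjusted p = 3.87e-05 in limma) but not without the first (−1.77, adjusted p = 0.0203), and it was −0.86 with a pseudocount of 1. The mean of the RE cells was 0.205 of that of the E cells, with an adjusted p of 0.103 in limma in E vs. RE, and that difference was also called without the second E library (log2FC −2.58, adjusted p = 0.00103 in limma) but not without the first (−0.59, adjusted p = 0.426).

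*Pigr* passed the filter through the 2 RE libraries alone, where it was at 0.379 and 0.270 ppm (18.0 and 11.9 reads' worth). It was at 0.152 and 0.0965 ppm in the E libraries (6.56 and 3.68 reads' worth) and 0.0716 and 0.00928 in the M libraries, which were at or under the floor. The states did not overlap, but all values were within 18 reads' worth. The mean of the RE cells was at least 4.48-fold above the floor of the M libraries and 2.62 times that of the E cells. Since the filter admitted *Pigr* through the state in which it was highest, these differences are given as a description. None of its comparisons was called with the settings given above. Its M vs. RE difference was called with weights for each library, with M and RE fitted alone and at an adjusted p threshold of 0.05.

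*Ltf* and *Saa1* were barely detected. *Ltf* had 6.0 and 2.0 reads' worth in the E libraries and 0 in the 4 M and RE libraries, where up to 3 reads' worth per library would be compatible with a count of 0. *Saa1* had 2.0 reads' worth in each E library and 0 in the others, so all 3 states were at or under the floor. *Saa2*, a near-identical copy of *Saa1*, was under the floor in all libraries too. Since unique reads were kept, reads from stretches that these copies have in common may be missing from both. Differences of *Ltf*, *Saa1* and *Saa2* were not detectable in these data.

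**Figure D2:**
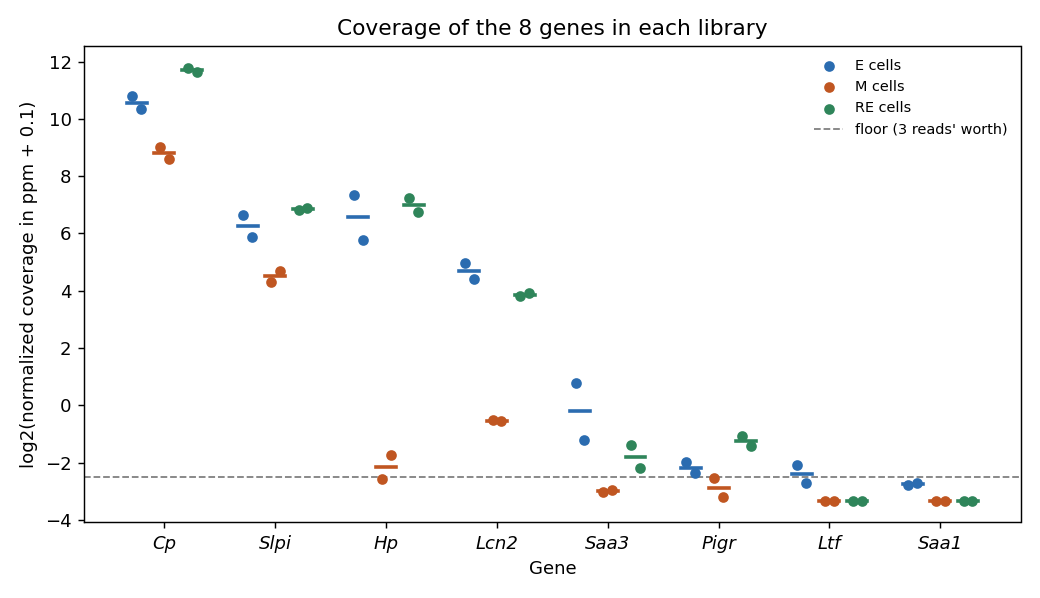
Coverage of the 8 members in each library. The y axis is log2(normalized coverage in ppm + 0.1), points are libraries (2 per state, blue for E, orange for M and green for RE cells), bars are the means of the log2 values and the dashed line is the floor of the library with the highest floor. *Cp*, *Slpi*, *Hp* and *Lcn2* are lowest in the M cells, *Hp* falls from the range of *Slpi* to the floor, and *Ltf* and *Saa1* lie at or near the floor in every state.

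**Figure D3:**
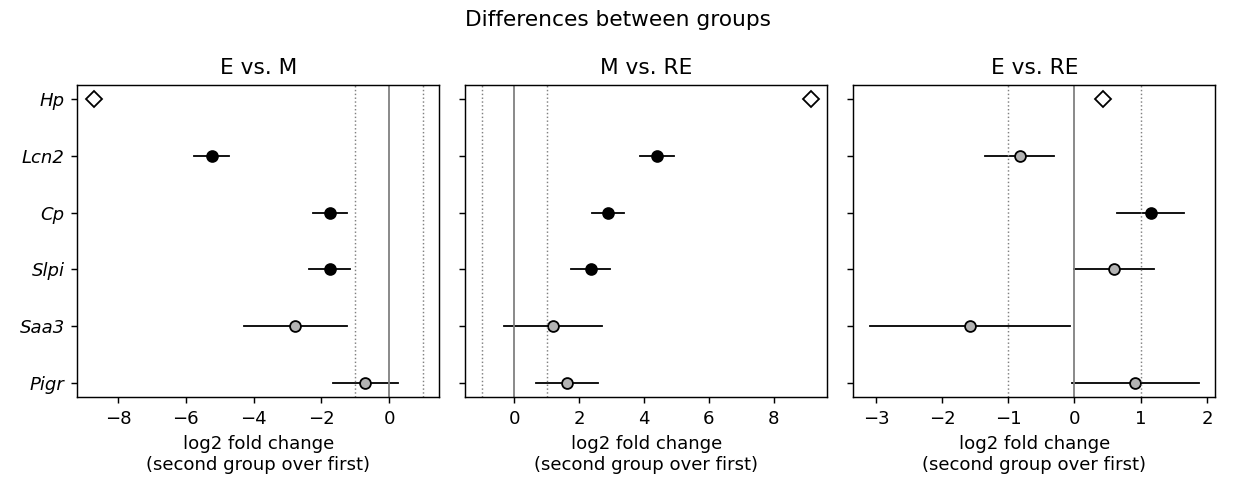
Differences between states for the 6 members in the fit. The x axis is the log2FC of the second state over the first, with its own range in each panel. Circles are estimates with 95% intervals from limma, black where called and grey where not, and the open diamonds of *Hp* are a description. Dotted lines mark a fold change of 2. *Lcn2*, *Cp* and *Slpi* are called left of 0 in E vs. M and right of 0 in M vs. RE, and *Cp* alone is called in E vs. RE.

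Levels can be compared between genes only per length, and were divided by the longest annotated transcript to give ppm per kb. In the E cells *Cp* was highest (387 and 283 ppm per kb), and *Hp* (121 and 40.5) and *Slpi* (115 and 66.6) overlapped, with *Lcn2* below (22.8 and 15.5). In the RE cells *Cp* led (776 and 696 ppm per kb), *Slpi* (129 and 136) lay above *Hp* (113 and 79.3), and *Lcn2* was at 10.1 and 11.1. In the M cells the order of the lower genes changed, with *Cp* (114 and 86.0 ppm per kb) and *Slpi* (22.5 and 29.5) above *Lcn2* (0.436 and 0.420) and *Lcn2* above *Hp* (0.0497 and 0.150). By mean level per kb, *Cp* ranked 53rd of 13599 genes with a length in the E cells, 509th in the M cells and 12th in the RE cells. *Hp* ranked 584th, 10724th and 391st.

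The 2 E libraries were unequal in these genes. In 7 of the 8 members the first E library was above the second, by 1.57 on the log2 scale for *Hp*, 1.98 for *Saa3*, 0.79 for *Slpi*, 0.55 for *Lcn2* and 0.45 for *Cp*. Over all genes tested the median of this difference was 0.0064. The difference of *Hp* was above that of 99.7% of the genes tested, that of *Saa3* above 99.9% and that of *Slpi* above 96.2%. *Socs3*, a feedback inhibitor that cytokine signalling induces, was at 20.9 ppm in the first and 10.6 in the second E library, *Cebpb* was at 111 and 67.3, and *Il6st*, which encodes gp130, was at 60.2 and 189. Their part in the unequal values was not tested.

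The genes whose profiles over the 6 libraries were most like those of the members were found among 11727 genes whose mean log2 value was 0 or more. Likeness is the root-mean-square difference of log2 values centred on each gene's mean, which is a description and depends on the size of the change as well as its shape. Among the nearest to *Hp* were *C130090K23Rik* (0.63) and *Atp13a5* (1.10). Both were at or under the floor in the M libraries, so their likeness to *Hp* there depends on the pseudocount. *Atp13a5* was at 9.98 and 5.21 ppm in the E libraries and higher, at 39.3 and 26.2, in the RE libraries, whereas *Hp* overlapped between these states. Nearest to *Lcn2* was *Mgat3* (0.24), a glycosyltransferase that modifies E-cadherin. Nearest to *Slpi* was *Tspyl4* (0.08), to *Cp* *Arhgap18* (0.16), to *Saa3* *Lrriq1* (0.48) and to *Pigr* *Caps2* (0.13).

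Other genes of the acute phase were read from a list of known acute phase proteins. Of 30 listed symbols besides the members, 13 were tested. In E vs. M, 4 of these were called lower and 1 higher, with a median log2FC of −0.77, against 8.35% of all genes lower and 8.41% higher. In M vs. RE, 5 were called higher and 0 lower, with a median of 1.04, against 7.92% and 4.79% of all genes. In E vs. RE, 2 were called higher and 1 lower, against 5.93% and 3.16% of all genes. At an unadjusted p below 0.05 in limma there were 11, 10 and 8 of the 13 in E vs. M, M vs. RE and E vs. RE. No share over all genes is given at that level. *Steap4*, a metalloreductase that takes part in iron and copper uptake, was at 30.9 and 21.9 ppm in the E libraries, 0.707 and 0.843 in the M libraries and 62.7 and 36.8 in the RE libraries. It fell by 4.90 on the log2 scale from E to M (adjusted p = 3.84e-05 in limma) and rose by 5.79 from M to RE (adjusted p = 2.35e-05).

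*Lbp*, which hands bacterial lipopolysaccharide to its receptor, was at 65.2 and 36.5 ppm in the E libraries, 2.02 and 2.68 in the M libraries and 116 and 101 in the RE libraries, with log2FC of −4.33 in E vs. M and 5.48 in M vs. RE (adjusted p = 5.71e-05 and 2.6e-05 in limma). The metallothioneins *Mt1* and *Mt2*, which bind zinc and copper, were called lower in M than in E (log2FC −2.05 and −2.59, adjusted p = 9.78e-05 and 0.000207 in limma). *Mt2* was also called lower in the RE than in the E cells (14.8 and 16.0 ppm in E, 4.77 and 5.62 in RE, log2FC −1.55, adjusted p = 0.00366 in limma). *Orm1*, an acute phase carrier protein with a near-identical copy (*Orm2*), was called higher in RE than in M (log2FC 2.15, adjusted p = 0.00557 in limma). *C3*, the central complement component, was at 661 to 720 ppm in the M libraries and 932 to 1141 in the others and was called in none of the comparisons (log2FC −0.46 in E vs. M and 0.71 in M vs. RE, adjusted p = 0.0308 and 0.00731 in limma).

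Of 29 listed mucosal and milk defence genes, 13 were tested. In E vs. M, 4 were called lower and 2 higher (median log2FC −0.30), against 8.35% of all genes lower and 8.41% higher. In M vs. RE, 4 were called higher and 0 lower (median 0.51), against 7.92% and 4.79% of all genes. In E vs. RE, 4 were called higher and 1 lower, against 5.93% and 3.16%. At an unadjusted p below 0.05 in limma there were 6, 7 and 8 of the 13 in E vs. M, M vs. RE and E vs. RE. No share over all genes is given at that level. Some genes of this list passed the filter through 1 state alone, *Wfdc12* through the RE and *Muc4* through the E libraries. With 500 bases required in every library, 7 were tested. Of these, 2 were called higher and 2 lower in E vs. M. In both M vs. RE and E vs. RE, 2 were called higher and 0 lower. Over all 12184 genes then tested, 1862, 1368 and 1109 were called in E vs. M, M vs. RE and E vs. RE. *Wfdc2*, a small secreted protein of the same whey acidic protein family as *Slpi*, was at 346 and 241 ppm in the E libraries, 65.3 and 63.2 in the M libraries and 162 in both RE libraries (log2FC −2.17 in E vs. M and 1.33 in M vs. RE, adjusted p = 0.000151 and 0.00153 in limma). *Xdh*, xanthine oxidoreductase of milk, was at 165 and 182 ppm in E, 47.1 and 46.7 in M and 386 and 327 in RE, and was called higher in RE than in E (1.03, adjusted p = 0.00235 in limma). Other members of the list moved otherwise. *Chi3l1*, a chitinase-like secreted protein, was higher in both M and RE than in E (log2FC 2.85 and 2.87, adjusted p = 0.0021 and 0.00387 in limma). *Mfge8*, a milk fat globule protein that helps clear dying cells, was higher in M than in E (1.10, adjusted p = 0.000525 in limma).

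The factors that are known to switch on acute phase genes differed among themselves. Of 4 C/EBP-related genes tested, 2 were called lower in E vs. M and higher in M vs. RE, where 8.35% of all genes were lower and 7.92% higher. These calls rest on single libraries: without the first or the second M library 0 of the 4 were called in limma in either comparison (3 at an unadjusted p below 0.05 in each), and without the first or the second RE library 0 were called in M vs. RE (2 and 3 at an unadjusted p below 0.05) and 1 in E vs. M. *Cebpb*, a main activator of acute phase promoters, was at 111 and 67.3 ppm in the E libraries, 26.4 and 31.5 in the M libraries and 68.9 and 94.6 in the RE libraries (log2FC −1.58 in E vs. M and 1.48 in M vs. RE, adjusted p = 0.00308 and 0.00518 in limma). The E and RE libraries overlapped. *Ddit3*, a stress-induced member of the family that often acts as an inhibitor, followed the same order (−1.28 and 1.53, adjusted p = 0.00538 and 0.00324 in limma). *Cebpa* had no coverage in the M libraries and at most 0.287 ppm elsewhere, and was not called. In E vs. RE, 0 of the 4 were called in limma and 1 had an unadjusted p below 0.05, against 4 in E vs. M and 3 in M vs. RE.

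Of 15 IL-6 family genes tested, 3 were called higher and 0 lower in E vs. M, where 16.8% of all genes were called, and this balance turned to 1 higher and 3 lower with library totals. In M vs. RE, 1 was called lower and 0 higher, against 12.7% of all genes. In E vs. RE, 2 were called higher and 0 lower, against 9.09% of all genes. At an unadjusted p below 0.05 in limma there were 14, 8 and 10 of the 15 in E vs. M, M vs. RE and E vs. RE. No share over all genes is given at that level. No order of the family as a whole is read from these counts. *Osmr*, the oncostatin M receptor, was lowest in E and highest in RE, with 35.8 and 46.9 ppm in E, 96.7 and 113 in M and 160 and 165 in RE. The difference was called in E vs. M (log2FC 1.35, adjusted p = 0.000834 in limma) and in E vs. RE (1.98, adjusted p = 0.000579) but not in M vs. RE (0.64, adjusted p = 0.0236). *Stat3*, the transcription factor of this pathway, was at 70.0 and 101 ppm in E, 135 and 145 in M and 197 and 176 in RE, and was called in E vs. RE (1.14, adjusted p = 0.00509 in limma). *Jak1*, a kinase of the receptor complex, was higher in M than in E (1.09, adjusted p = 0.00049 in limma). *Il6st* (1.06 in E vs. M, adjusted p = 0.0976 in limma) and *Socs3* (−1.11, adjusted p = 0.0216) were not called.

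Of 20 tested genes of interleukin 1, interleukin 17, TNF and NF-κB signalling, 8 were called higher and 0 lower in E vs. RE. Of all genes, 5.93% were higher and 3.16% lower there. The median log2FC of the 20 genes was 0.83. At an unadjusted p below 0.05 in limma there were 14, 9 and 15 of the 20 in E vs. M, M vs. RE and E vs. RE. No share over all genes is given at that level. In M vs. RE, 5 were called higher and 1 lower, against 7.92% and 4.79% of all genes. In E vs. M, 4 were called higher and 1 lower, against 8.41% and 8.35% of all genes, and 3 in each direction with library totals. *Nfkbiz*, a nuclear cofactor of NF-κB that *Lcn2* expression is known to need, was at 58.7 and 54.3 ppm in the E libraries, 31.0 and 36.5 in the M libraries and 314 and 310 in the RE libraries. *Il1r1*, the interleukin 1 receptor, was higher in the RE cells than in the E (1.89, adjusted p = 0.00301 in limma) and M cells (1.96, adjusted p = 0.00156). Its partner *Il1rap* was higher in both M (2.43, adjusted p = 7.75e-05 in limma) and RE than in E (2.12, adjusted p = 0.000505). *Il1rn*, the secreted antagonist of the same receptor, was lowest in M (0.652 and 0.587 ppm) and highest in RE (5.78 and 3.99), and was called in all 3 comparisons.

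Of 18 genes of iron and haem handling tested, 4 were called higher and 1 lower in E vs. M (2 higher and 4 lower with library totals). There were 2 higher and 1 lower in M vs. RE, and 1 higher and 0 lower in E vs. RE. Over all genes the share called was 16.8%, 12.7% and 9.09% in these comparisons. At an unadjusted p below 0.05 in limma there were 16, 9 and 10 of the 18 in the same order. No share over all genes is given at that level. *Cd163*, the receptor for complexes of haptoglobin and haemoglobin, was at 3.04 and 3.76 ppm in the E libraries, 0.565 and 0.445 in the M libraries and 3.70 and 3.63 in the RE libraries (log2FC −2.53 in E vs. M and 2.65 in M vs. RE, adjusted p = 0.000254 and 0.000244 in limma). *Lrp1*, which takes up haem bound to hemopexin among many other ligands, went the other way, from 550 and 1021 ppm in E to 4015 and 3964 in M and 2515 and 2188 in RE (2.41 in E vs. M, adjusted p = 0.00068 in limma). *Hfe*, a regulator of iron sensing, was higher in RE than in M (1.39, adjusted p = 0.00149 in limma). *Slc39a14*, a zinc and iron importer, was higher in M than in E (1.24, adjusted p = 0.00987 in limma).

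**Figure D4:**
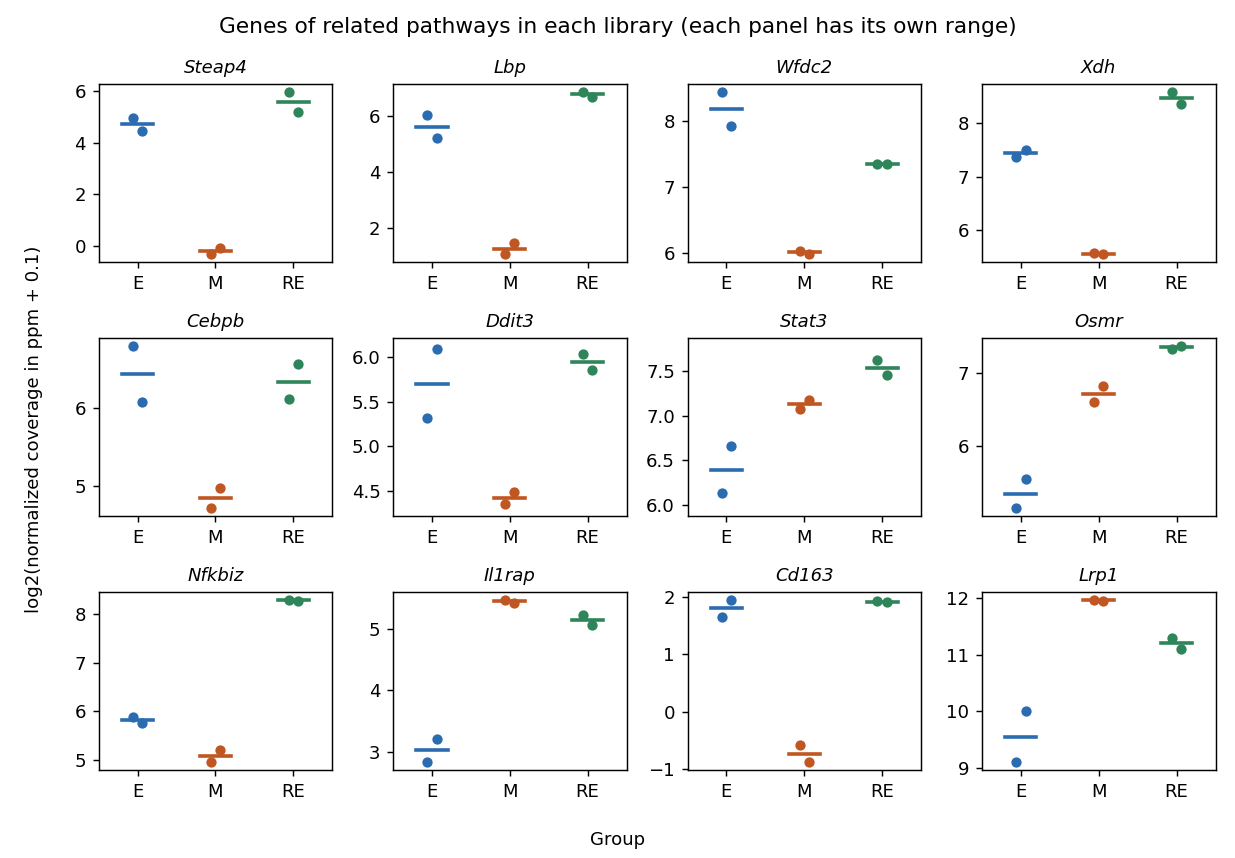
Coverage of 12 genes from the lists in each library. The y axis is log2(normalized coverage in ppm + 0.1) with its own range in each panel, points are libraries (2 per state) and bars are the means of the log2 values. *Steap4*, *Lbp*, *Wfdc2*, *Xdh*, *Cebpb*, *Ddit3* and *Cd163* are lowest in the M cells, *Stat3* and *Osmr* are highest in the RE cells, *Nfkbiz* is about 5.5 times higher in the RE than in the E cells, and *Il1rap* and *Lrp1* are highest in the M cells.

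The list counts rested on few libraries, as did the counts over all genes. In E vs. RE, 1263 of all genes were called, but 9 without the first and 50 without the second RE library, 608 and 629 without the first or the second M library, and 1672 and 2288 without the first or the second E library. With either RE library left out, at most 1 gene of each list was called there. With either M library left out, the acute phase and mucosal lists had at most 1 call each and the interleukin 1 list 4 or 5, and with either E library left out they had 3 to 6, 4, and 9 or 10. When E and RE were fitted alone, at most 1 gene each of the acute phase and mucosal lists and 3 of 20 of the interleukin 1 list were called.

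In E vs. M, the calls over all genes went from 2329 to 917 and 950 without the first or the second M library. Those of the interleukin 1 list went from 5 to 1 in both cases, those of the iron list from 5 to 3 and those of the IL-6 list from 3 to at most 1. In M vs. RE, the calls over all genes went from 1766 to between 628 and 739 without any 1 of the M or RE libraries, those of the interleukin 1 list from 6 to 2 and those of the iron list from 3 to 1. As single libraries were left out, the acute phase list had between 4 and 6 calls in E vs. M and between 2 and 8 in M vs. RE, and the mucosal list between 2 and 6 and between 2 and 5. With 500 bases required in every library, the acute phase list kept the same counts of calls among 10 genes. The IL-6 list then had 2 of 13 called in E vs. M and 0 in M vs. RE. The iron list had 3 of 15 called in E vs. M and 2 in M vs. RE. The lists were chosen with earlier results of these data known, so that their counts are descriptions.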

How the data were processed

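The authors aligned the reads (mouse build NCBI-m37, Bowtie and TopHat2) and kept unique ones. Their deposited table holds whole numbers for each gene symbol and library that behave as coverage (signal), that is, bases summed over a gene. The step that summed them and its annotation are not given in the sources used here. Overlapping or near-identical genes may share coverage.

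Libraries were grouped by their titles. Values were scaled by TMM factors without weights (trimming 30% by log ratio and 5% by mean level, on the genes tested), from 0.875 to 1.12, in R 4.3.3. The 13893 genes that reached 500 bases in 2 or more libraries were fitted with limma 3.58.1 on log2(ppm + 0.1), all 6 libraries, group only, with a trend, and Benjamini-Hochberg adjustment over all genes. The edgeR test of the study needs read counts and was not used. The fit was tested on simulated data.

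The members and lists were chosen with earlier results of these data known. From each list, up to 4 called genes with the largest change and an average log2 value of at least 0 were named, with genes fixed for their role. *Cebpd* was not analysed here, and 1 gene that the rule for likeness of profiles named is not reported here. Transcript lengths came from GENCODE M21 (GRCm38) and promoter windows from RefSeq (GRCm38.p6), both newer than the authors' build, and were matched by symbol. The alternatives were other scalings, filters, pseudocounts, thresholds and fits, the replicate block and leaving out each library.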

Additional observations from a re-analysis of the deposited data

How the results depend on the processing

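With 2 libraries per state, single libraries decided several calls, and in fits without 1 library its partner was assumed to vary like the other groups. The number of members besides *Hp* called in limma ran from 1 to 4 in E vs. M, from 2 to 4 in M vs. RE and from 0 to 2 in E vs. RE when 1 library at a time was left out (with 0 called, 1 or 2 had an unadjusted p below 0.05). The member added in M vs. RE was *Pigr*, which passed the filter through the RE libraries alone, so its calls are a description. In E vs. RE the number called was 0 in place of 1 with library totals, with no filter and when E and RE were fitted alone (3, 6 and 3 at an unadjusted p below 0.05). The *Hp* difference in E vs. RE changed sign to −0.37 without the second E library and was 1.22 without the first. No other difference of a member changed sign under the alternatives. With library totals, the log2FC median over all genes moved to −0.29 in E vs. M and 0.18 in M vs. RE, and the share of called genes that were higher went from 50.2% to 30.5% and from 62.3% to 73.8%. Same-numbered libraries deviated together weakly (across genes, r was 0.27 between E and M, 0.12 between M and RE and 0.058 between E and RE), so the numbers were not taken as pairs. With the replicate block 4, 3 and 1 members were called in E vs. M, M vs. RE and E vs. RE, *Saa3* being the added one (adjusted p = 0.00641 in limma). Depth limits *Saa1*, *Ltf*, *Saa3* and *Pigr* most, and *Saa1* may also lack reads in common with *Saa2*.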

Other observations

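The following genes of the lists fall outside the rule for named genes and were chosen after their values were seen. *Muc15*, a membrane mucin of milk, was at 1.26 and 0.740 ppm in the E libraries, 0.0477 and 0.0762 in the M libraries and 5.78 and 4.34 in the RE libraries. It was called in all 3 comparisons (log2FC −2.73 for M and 2.26 for RE against E and 4.99 for RE against M, adjusted p = 0.000838, 0.00364 and 6.95e-05 in limma). For *Muc15* the first M library was under its floor (0.0716 ppm) and the second near its own (0.0732), so both values against M are rough. *Il11*, a cytokine that also signals through gp130, had the opposite order, with 0.146 and 0.199 ppm in the E libraries, 0.657 and 1.45 in the M libraries and 0.0211 and 0.0227, under the floor, in the RE libraries. It passed the filter through the M libraries alone. *Bdh2*, an enzyme reported to make the mammalian iron carrier that lipocalin 2 binds, was at 0.0851 and 0.0441 ppm in E, 1.85 and 2.06 in M and 0.594 and 0.335 in RE, which is the reverse of the order of *Lcn2* (log2FC 3.65 in E vs. M and −1.90 in M vs. RE, adjusted p = 0.000273 and 0.00609 in limma). For *Bdh2* the second E library was under its floor (0.0787 ppm) and the first near its own (0.0694), so the E vs. M value is rough. *Cd14*, the coreceptor that receives lipopolysaccharide from the *Lbp* product, was higher in M (25.6 and 24.8 ppm) and RE (25.1 and 27.9) than in E (12.4 and 7.45).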
